A study of Mus musculus with 12 samples.

Results

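The genes described are the matrix metalloproteinases (Mmp), the ADAM and ADAMTS metalloproteinases and the tissue inhibitors of metalloproteinases (Timp) in day-10 skin wounds of diabetic mice. They were taken from a list of 43 named family members, which were located in the count tables through their Ensembl gene identifiers. Members with fewer than 15 counts summed over all 12 libraries were dropped. That removed Adam28, which had 4 counts in all, and left 42 of the 54232 listed genes: 16 Mmp, 4 Timp, 8 Adam and 14 Adamts genes. All 42 also passed the filter on low counts and were among the 18618 genes tested.

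The animals were male C57BLKS/J mice with the genotype Lepr (db/db), an obese and diabetic strain without a working long leptin receptor, aged 12.5 weeks per the labels. All groups shared this genotype and a full-thickness punch wound of 6 mm on the back; healthy mice and unwounded skin were not analysed here. A total of 5 libraries came from wounds covered with Tegaderm film alone (TD), 4 from wounds with a patch built to impose about 30% strain (Strain), and 3 from wounds with an unstrained patch (No Strain). The comparison of the patches asks what mechanical strain does to the wound, and the comparison with TD asks what a patch does. Whether wounds shared a mouse is not given by the labels, so p-values measure only the spread between these samples, which may be technical. Each sample was bulk tissue, in which fewer cells of a type and less RNA per cell cannot be told apart.

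Matrix metalloproteinases are zinc enzymes that cut collagens, laminins, elastin and other matrix proteins, and most are secreted as inactive proenzymes. In healing skin, collagenases and stromelysins let keratinocytes and fibroblasts move through the provisional matrix, and the TIMPs bind the active enzymes and block them. ADAM proteases sit in the cell membrane and release growth factors, cytokines and receptors from it, while the secreted ADAMTS enzymes mainly trim procollagens and proteoglycans. Transcript levels are measured here, not enzyme activity.

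Total counts ranged from 20354677 to 25059371 per library. Fibroblast marker genes summed to between 46187 and 80717 CPM (counts scaled to a common library total) and basal and wound keratinocyte markers to between 7495 and 20906 CPM, so both main cell types of a skin wound were present in all libraries. Of 9 such keratinocyte markers, Krt6b was higher and Itgb4 lower in each comparison with TD (22.2%). Of all genes tested, 12.6% passed in Strain against TD and 17.8% in No Strain against TD. The marker counts here stand beside these shares. Several other marker lists differed between the dressings. The 10 tested neutrophil markers included 7 higher genes in Strain against TD and 5 in No Strain against TD, with summed levels of 363 to 1571 CPM in TD, 737 to 8500 CPM in Strain and 1750 to 5013 CPM in No Strain. Of 9 adipocyte markers, 6 and 8 were lower, with sums of 2382 to 4541 CPM in TD, 1563 to 2403 CPM in Strain and 1421 to 1911 CPM in No Strain. Of 11 tested skeletal muscle markers, 7 and 2 were lower, with sums of 5668 to 13986 CPM in TD, 2727 to 5401 CPM in Strain and 4103 to 8871 CPM in No Strain. In No Strain the share of muscle markers (18.2%) was near that of all genes, and the sums overlapped those of TD. Endothelial markers were higher for 3 of 7 genes in each comparison, and none of the 10 macrophage, 10 fibroblast, 6 mast cell and 5 differentiated epidermis markers passed in either. T cell markers were higher for 3 and 2 of 5 genes. No marker on any of these lists was at 0 in every library, but 3 neutrophil markers and 1 muscle marker were at 0 in some. The neutrophil sums rest mostly on S100a8 (269989 counts in the 12 libraries) and S100a9 (357551). Csf3r, the next of the list, had 20871. The libraries with the highest neutrophil sums, Strain 1, Strain 2 and No Strain 1, also had the highest keratinocyte sums (20906, 14630 and 18887 CPM). The part that the marker shifts between dressings play in the results was not tested. Marker values printed beside single genes are descriptive.

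Under both patches the neutrophil collagenase Mmp8, the stromelysin Mmp3, the gelatinase Mmp9, the membrane-anchored Mmp25 and the matrix protease Adamts7 were higher than under film alone, and the matrix-bound inhibitor Timp3 and the membrane protease Adam33 were lower. Adjusted p-values throughout are those of edgeR's quasi-likelihood test, with the Benjamini-Hochberg adjustment over all 18618 genes and a threshold of 0.05. In Strain against TD, 9 of 42 members passed (21.4%), against 12.6% of all genes tested, and 6 of them were higher (against 6.2% of genes) and 3 lower (against 6.41%). In No Strain against TD, 13 of 42 passed (31.0%), against 17.8% of all genes, 9 higher (against 9.35%) and 4 lower (against 8.4%). Averaging the 2 patch groups against TD gave 16 members (38.1%), against 24.4% of all genes, 10 higher (against 12.4%) and 6 lower (against 12.1%). Groups were apart, with no overlap of libraries, for 9 members in Strain against TD (21.4%, against 14.6% of all genes), for 15 in No Strain against TD (35.7%, against 26.7%) and for 8 when both patch groups were set against TD (19.0%, against 11%). These comparisons share the 5 TD libraries, so they are given side by side and one is no support for another. The median log2 fold change of the 42 members was -0.05 in Strain and 0.13 in No Strain against TD, where the medians of all genes were 0.02 and 0.00452: most members lay near 0, and the calls lay in the tails.

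The counts of calls changed with each of 2 covariates, with the tool and filter, and with single libraries. With the average of the skeletal muscle markers as covariate, 0 of 42 members passed in Strain against TD. In No Strain against TD 8 passed, and for the mean of both patch groups 1, Timp3. The same model called 1, 939 and 100 of all genes. Its log2 fold changes in Strain stayed near the main ones or beyond them for Mmp9 (1.01), Mmp8 (2.22), Mmp3 (1.22), Adam33 (-0.71) and Timp3 (-1.32). They were smaller for Mmp25 (0.23), Adamts7 (0.58), Adam17 (0.32) and Adamts8 (-0.68). Muscle marker sums in Strain (2727 to 5401 CPM) lay below all of TD (5668 to 13986 CPM). Covariate and dressing can therefore not be fully told apart there. The titles also carry a letter, L or R, of unstated meaning, which was R for 4 of 5 TD libraries and L for 5 of 7 patch libraries. With this letter as covariate, 2 members (Mmp8 and Timp3) passed in Strain against TD, beside 4.29% of all genes. It left 10 in No Strain against TD (beside 11.5%) and 9 for both patch groups averaged (beside 13.9%). The Strain calls lost to it were Mmp9 (adjusted p = 0.126), Mmp3 (0.201, the log2 fold change falling to 0.66), Mmp25 (0.155), Adamts7 (0.159), Adam17 (0.0837), Adam33 (0.0754) and Adamts8 (0.126). In No Strain they were Mmp13 (adjusted p = 0.0821), Mmp25 (0.0964), Adamts1 (0.0608) and Adamts10 (0.0729), while Adam8 gained a call. In Strain against TD, DESeq2 called 14 members (beside 18.9% of all genes) and the fit with no filter on low counts 5 (beside 4.28%). Fits that each left out 1 library called 3 to 9 members in Strain against TD, beside 4.75% to 13.3% of all genes. They called 3 without TD 2, TD 3, Strain 1 or Strain 2, 4 without TD 4 and 5 without TD 1. In No Strain against TD such fits called 10 to 15 members, beside 7.88% to 18.4% of all genes. For the mean of both patch groups they called 13 to 16, beside 17.2% to 24.7%.

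**Figure D1:**
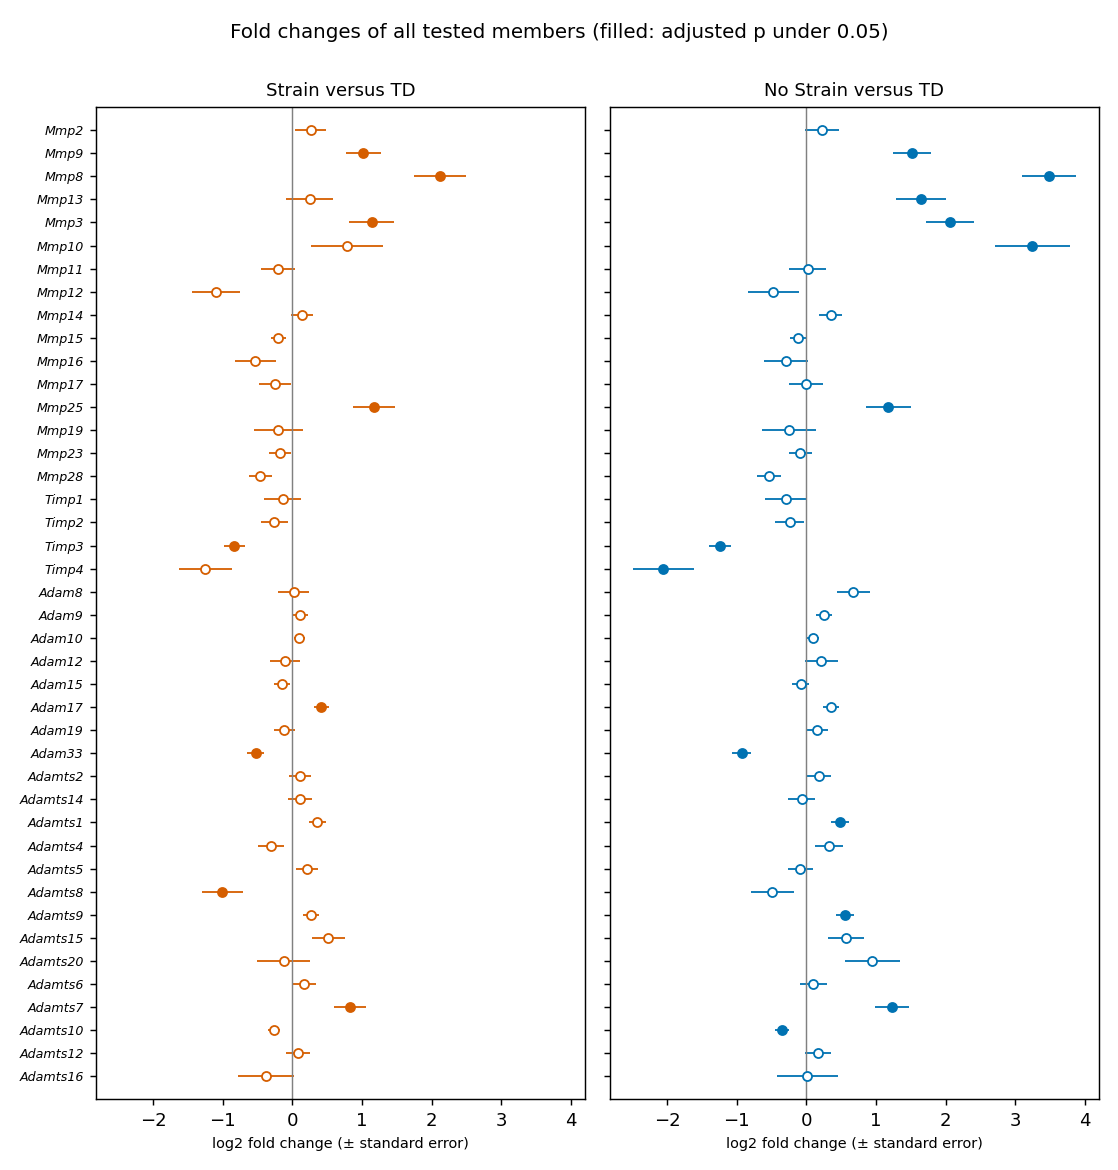
Log2 fold changes (x axis, ± standard error) of the 42 members (y axis) in Strain versus TD and No Strain versus TD, with filled points for an adjusted p under 0.05. Filled points to the right include Mmp8 at 2.12 and 3.48 against TD, and filled points to the left include Timp3 at -0.83 and -1.24.

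Compared per exon length, the highest levels were those of 3 secreted enzymes, the membrane enzyme Mmp14 and the inhibitor Timp2. Over all 12 libraries, Mmp2 averaged 418 FPKM (CPM per kilobase of exon), Mmp3 341, Timp2 285, Mmp14 161 and Mmp13 119 FPKM. Mmp3 was the second of these, but its group means were 155 FPKM in TD, 342 in Strain and 651 in No Strain, and those of Mmp2 were 376, 452 and 441 FPKM. At the other end, Mmp16 averaged 0.296, Adamts20 0.326 and Adamts8 0.350 FPKM.

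**Figure D2:**
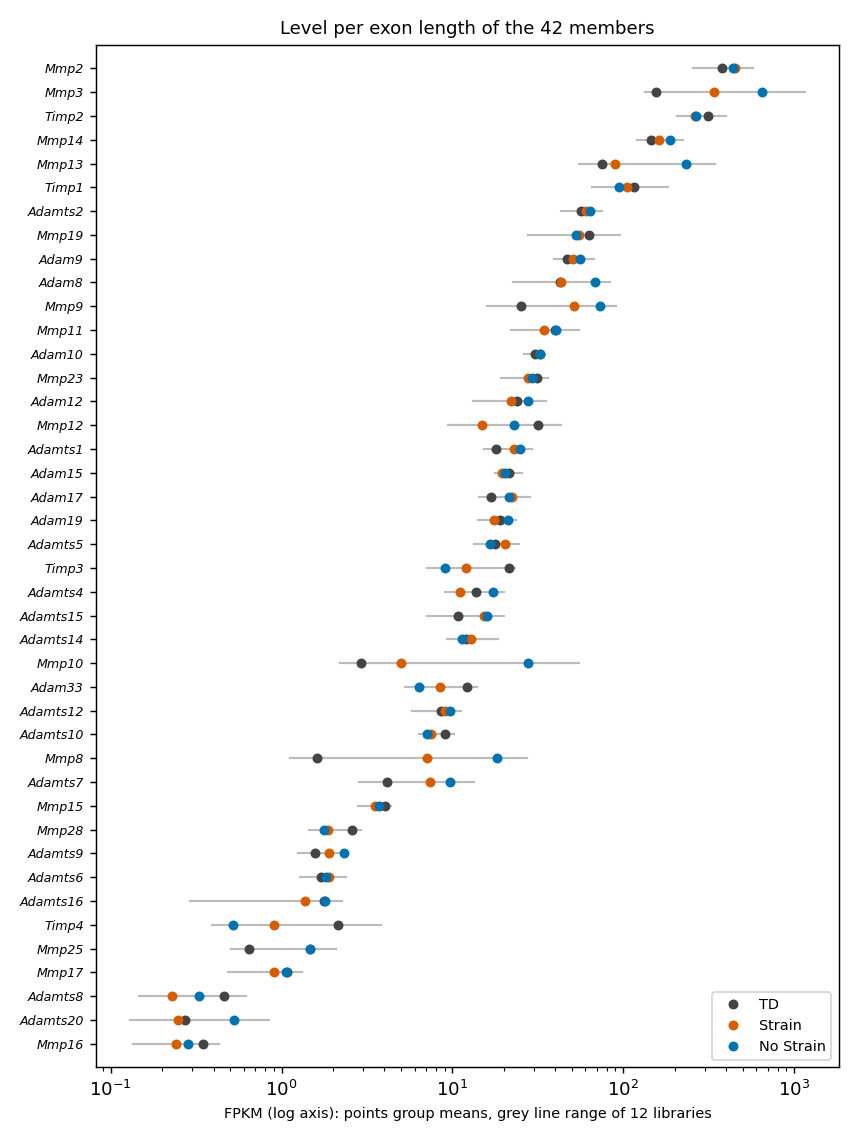
Level per exon length (x axis, FPKM on a log axis) of the 42 members (y axis); points are the group means of TD, Strain and No Strain, and grey lines span the 12 libraries. Mmp2, at 418 FPKM on average, leads the order and Mmp16, at 0.296 FPKM, ends it.

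Of the gelatinases, which degrade denatured collagen and basement membrane collagen, Mmp9 rose under both patches and Mmp2 did not pass. Mmp9 (chr2:164940780-164955850, plus strand, GRCm38), a product of neutrophils, macrophages and keratinocytes, was at 94.1, 56.4, 88.0, 129.9 and 80.1 CPM in TD 1 to TD 5. It was at 205, 139.7, 154 and 229.7 CPM in Strain 1 to Strain 4 and at 158, 294 and 321 CPM in No Strain 1 to No Strain 3. All 7 patch libraries were above the highest TD library. Against TD this was a log2 fold change of 1.02 ± 0.26 (adjusted p = 0.0282) in Strain and 1.52 ± 0.28 (adjusted p = 0.00582) in No Strain. The Strain call was lost without TD 2, TD 3, TD 5, Strain 1 or Strain 4 (adjusted p 0.0535 to 0.0632), whereas the No Strain call held whichever library was left out. Mmp2, made mainly by fibroblasts, was at 1459, 1494, 861, 1004 and 1522 CPM in TD, at 1760.0, 1431, 965 and 1934 in Strain and at 1229.9, 1596 and 1633 in No Strain. Its 3 groups overlapped throughout, with log2 fold changes against TD of 0.26 ± 0.22 (adjusted p = 0.467) and 0.23 ± 0.24 (adjusted p = 0.55).

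The interstitial collagenases, which make the first cut in fibrillar collagen, both rose in No Strain wounds, and Mmp8 also rose in Strain wounds. Mmp8 (chr9:7558456-7568485, plus strand), stored in the granules of neutrophils, was at 3.13, 3.57, 7.02, 3.19 and 2.72 CPM in TD, at 17.4, 19.4, 13.4 and 18.4 CPM in Strain and at 17.4, 66.4 and 48.5 CPM in No Strain. All patch libraries were above TD 3, the highest TD library. Its log2 fold change, the greatest of any member in both comparisons, was 2.12 ± 0.37 (adjusted p = 0.00856) in Strain and 3.48 ± 0.39 (adjusted p = 0.00111) in No Strain against TD. Both calls held in all 12 fits that left out a library. Neutrophil markers, mostly S100a8 and S100a9, summed to 8500 and 5616 CPM in Strain 1 and Strain 2 and to 737 and 1230 CPM in Strain 3 and Strain 4. TD 1 was at 1571 CPM, above the last 2, and the other TD libraries were at 363 to 552 CPM. Whether neutrophil numbers play a part in Mmp8 was not tested. Mmp13 (chr9:7272514-7283331, plus strand), the main collagenase of rodent fibroblasts, was at 147, 172, 231, 282 and 170.4 CPM in TD, at 231, 217, 166 and 339.6 CPM in Strain and at 254, 702 and 921 CPM in No Strain. No Strain 2 and No Strain 3 stood above all other libraries, and No Strain 1 lay within the TD range. The change in log2 was 1.64 ± 0.36 (adjusted p = 0.0122) in No Strain against TD and 0.25 ± 0.34 (adjusted p = 0.663) in Strain against TD. Without No Strain 3 the first fell to 1.25 and no longer passed (adjusted p = 0.0615). For the mean of both patch groups the value was 0.95 ± 0.30 (adjusted p = 0.0417). That call was lost in 9 of 12 such fits, all but those without TD 4, Strain 3 or No Strain 1 (adjusted p 0.0566 to 0.0929).

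Stromelysins cut proteoglycans, laminin and fibronectin and can activate other proenzymes, and Mmp3 and Mmp10 were both far above TD in No Strain wounds. Mmp3 (chr9:7445822-7455975, plus strand), made by wound fibroblasts and basal keratinocytes, was at 338, 271, 240.4, 284 and 264 CPM in TD. It reached 710.2, 814, 396 and 541 CPM in Strain and 585, 854 and 2078 CPM in No Strain. Every patch library exceeded every TD library, and No Strain 3 was far above any other. The log2 fold change was 1.14 ± 0.32 (adjusted p = 0.0411) in Strain and 2.07 ± 0.35 (adjusted p = 0.00434) in No Strain against TD. The Strain call was lost without any one TD library or without Strain 1, Strain 2 or Strain 4 (8 of 12 fits, adjusted p 0.0571 to 0.132), and the No Strain call in none, although its value fell to 1.36 without No Strain 3. Mmp10 (chr9:7502352-7510240, plus strand), typical of keratinocytes at the migrating edge, was at 4.65, 4.35, 3.79, 5.81 and 6.44 CPM in TD, at 9.89, 6.80, 6.00 and 11.9 CPM in Strain and at 8.82, 38.4 and 95.2 CPM in No Strain. No Strain 1 lay within the Strain range, and No Strain 2 and No Strain 3 lay far above it. The log2 fold change was 3.24 ± 0.54 (adjusted p = 0.0043) in No Strain against TD, called in all 12 fits that left out a library but reduced to 2.24 without No Strain 3, and 0.78 ± 0.51 (adjusted p = 0.337) in Strain against TD.

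Other members of this subgroup did not rise. The macrophage elastase Mmp12 (chr9:7344381-7369499, plus strand) was at 95.2, 208, 228, 314 and 308 CPM in TD, at 97.7, 89.1, 68.6 and 174 in Strain and at 134, 187 and 177 in No Strain. Its Strain libraries were mostly below the TD libraries but overlapped them, and the log2 fold change of -1.10 ± 0.34 (adjusted p = 0.0568) did not pass, nor did that of -0.47 ± 0.37 (adjusted p = 0.406) in No Strain. In Strain, and for the mean of both patch groups, Mmp12 did pass as lower with DESeq2, without TD 1 and without Strain 4. Summed macrophage markers ran from 2422 to 5416 CPM in TD and from 4578 to 7592 CPM in the patch libraries, with 0 of 10 called. Stromelysin-3, Mmp11, was at 110.3 ± 8.50 CPM (SD, n = 5) in TD, 95.6 ± 42.2 CPM (SD, n = 4) in Strain and 112 ± 29.3 CPM (SD, n = 3) in No Strain.

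Mmp13, Mmp12, Mmp3, Mmp10 and Mmp8 lie in this order within 296 kb of chromosome 9 (chr9:7272514-7568485, GRCm38), all on the plus strand. In No Strain against TD, 4 of the 5 rose and Mmp12, the second in the row, did not pass. The next gene beyond Mmp8, Mmp27, is not on the list of members; its group means were 8.69 FPKM in TD, 7.38 in Strain and 6.33 in No Strain. The remaining Mmp genes of the locus had few counts, with 115 counts for Mmp1b, 15 for Mmp1a, 5 for Mmp20 and 2 for Mmp7 in the 12 libraries together. This set was chosen for its position after its values had been seen.

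The promoter letters of these 5 neighbours are shown because 4 of them rose in the same comparison, together with those of Timp3, the most clearly lowered inhibitor. Each is the stretch of 250 bases that ends just before the RefSeq start site, read 5′ to 3′ on the plus strand of GRCm38.p6. Capitals mark matches on either strand to AP-1 (TGAGTCA), ETS (AGGAAG), the NF-kB consensus and TATAAA; the last was added after the others had been searched. Mmp12 has 2 annotated starts.

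Mmp13 (chr9:7272264-7272513): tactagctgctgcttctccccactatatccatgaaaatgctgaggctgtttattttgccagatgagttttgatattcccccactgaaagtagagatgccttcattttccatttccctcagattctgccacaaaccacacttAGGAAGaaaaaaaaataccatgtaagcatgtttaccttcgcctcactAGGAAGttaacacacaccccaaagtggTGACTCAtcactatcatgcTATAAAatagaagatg

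Mmp12, upstream start (chr9:7344147-7344396): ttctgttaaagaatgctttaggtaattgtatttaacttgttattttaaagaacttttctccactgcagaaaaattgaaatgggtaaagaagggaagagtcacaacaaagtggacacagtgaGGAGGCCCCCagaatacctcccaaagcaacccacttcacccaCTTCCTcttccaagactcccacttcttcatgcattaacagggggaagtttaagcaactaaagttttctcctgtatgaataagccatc

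Mmp12, downstream start (chr9:7347124-7347373): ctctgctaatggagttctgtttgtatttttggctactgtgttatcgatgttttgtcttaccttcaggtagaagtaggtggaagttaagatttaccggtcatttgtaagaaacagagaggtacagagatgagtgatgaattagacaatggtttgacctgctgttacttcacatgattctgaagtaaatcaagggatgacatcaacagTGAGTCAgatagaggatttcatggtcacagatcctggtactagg

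Mmp3 (chr9:7445572-7445821): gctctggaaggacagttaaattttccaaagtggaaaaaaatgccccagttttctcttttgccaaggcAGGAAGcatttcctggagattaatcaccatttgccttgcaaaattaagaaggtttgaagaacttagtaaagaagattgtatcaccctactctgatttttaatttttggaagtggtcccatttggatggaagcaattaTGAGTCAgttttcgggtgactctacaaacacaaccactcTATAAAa

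Mmp10 (chr9:7502092-7502341): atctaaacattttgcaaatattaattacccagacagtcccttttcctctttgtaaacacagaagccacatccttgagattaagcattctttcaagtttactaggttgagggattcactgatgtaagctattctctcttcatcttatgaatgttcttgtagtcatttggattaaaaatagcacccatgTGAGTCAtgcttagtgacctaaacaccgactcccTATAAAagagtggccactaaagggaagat

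Mmp8 (chr9:7558179-7558428): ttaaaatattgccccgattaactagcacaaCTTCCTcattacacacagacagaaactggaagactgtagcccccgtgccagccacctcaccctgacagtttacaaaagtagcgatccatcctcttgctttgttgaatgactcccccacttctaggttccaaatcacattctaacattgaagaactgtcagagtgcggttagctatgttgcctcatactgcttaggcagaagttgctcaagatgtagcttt

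Timp3 (chr10:86300162-86300411): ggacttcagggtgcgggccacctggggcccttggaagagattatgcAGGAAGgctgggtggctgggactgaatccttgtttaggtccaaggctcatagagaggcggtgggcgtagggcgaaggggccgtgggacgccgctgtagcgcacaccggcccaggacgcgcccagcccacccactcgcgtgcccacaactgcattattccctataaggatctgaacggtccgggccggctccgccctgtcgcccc

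Mmp13, Mmp3 and Mmp10, which rose in No Strain wounds, each had 1 AP-1 match close to the start, beginning 35, 46 and 63 bases before it. The downstream start of Mmp12, which did not pass, had one too, 44 bases before it. Mmp8, with the greatest fold change, had none in its window and held 1 ETS match 220 bases upstream. Of the 30 windows held for 26 of the 42 members, 5 had an AP-1 match (16.7%), against 4.46% of all 32851 windows of this length. The other AP-1 match among members was at 1 of 3 starts of Adam19, which passed no test. NF-kB matches were in 5 member windows, against 7.25% of all windows, ETS matches in 13 (43.3%), against 29.5%, and TATAAA in 4, against 12.4%. Among called members outside the cluster, Mmp25 had NF-kB matches 88 and 51 bases and ETS matches 121 and 12 bases before its start. Adamts9 had an NF-kB match at 15 bases, Adam17 ETS matches at 153 and 122, Timp4 an ETS match at 111 and Adamts1 a TATAAA match at 32. Timp1, which did not pass, had ETS matches at 175 and 99 bases, and Timp3 had 1 at 204 bases. A match describes letters and shows no binding, and the table held no window for Mmp9 or Adamts7.

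Of the membrane-anchored enzymes, which act at the cell surface, Mmp25 rose under both patches and the other 4 did not pass. Mmp25 (chr17:23628311-23645277, minus strand), a glycolipid-anchored enzyme known from neutrophils, was at 2.67, 3.53, 3.99, 3.35 and 3.64 CPM in TD, at 10.6, 11.0, 4.40 and 4.89 CPM in Strain and at 6.84, 10.9 and 5.53 CPM in No Strain. The patch libraries were all above TD, but Strain 3 and Strain 4 were only just so. These were also the 2 Strain libraries with the lowest neutrophil marker sums. No Strain 2 had the lowest sum of its group (1750 CPM) and the highest Mmp25 of that group. TD 1 had the highest sum of TD and the lowest Mmp25. These sums rest mostly on S100a8 and S100a9, and the part of neutrophil numbers in Mmp25 was not tested. The log2 fold change of Mmp25 against TD was 1.17 ± 0.30 (adjusted p = 0.0308) in Strain and 1.18 ± 0.32 (adjusted p = 0.0297) in No Strain. With the muscle covariate the values were 0.23 (adjusted p = 0.926) and 0.67 (adjusted p = 0.322). Neither call held throughout: the Strain call was lost without any one TD library, Strain 1 or Strain 2 (adjusted p 0.0502 to 0.102), and the No Strain call without TD 1, TD 2, TD 4, No Strain 1 or No Strain 2 (adjusted p 0.0529 to 0.12). Mmp14, the collagenase of the fibroblast surface that activates proMmp2, was at 871 ± 92.9 CPM (SD, n = 5) in TD, 959 ± 186 CPM (SD, n = 4) in Strain and 1111 ± 234 CPM (SD, n = 3) in No Strain, and did not pass. Mmp15, Mmp16 and Mmp17 had log2 fold changes between -0.53 and -0.01 against TD, and none passed.

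Among the remaining Mmp genes, only Mmp28 passed a test, and only for the 2 patch groups together. Mmp28 (chr11:83440768-83463071, minus strand), an enzyme of keratinocytes, was at 10.3, 9.53, 11.3, 9.08 and 9.60 CPM in TD, at 8.55, 5.58, 9.27 and 5.61 CPM in Strain and at 6.80, 6.44 and 7.34 CPM in No Strain. All No Strain libraries were below all TD libraries, and Strain 3 reached into the TD range. The log2 fold change of the mean of both patch groups was -0.50 ± 0.14 (adjusted p = 0.0223), which was lost without TD 3 (adjusted p = 0.0577). Mmp19 and Mmp23 did not pass, at 223 ± 84.5 CPM (SD, n = 5) and 72.7 ± 11.1 CPM (SD, n = 5) in TD and at log2 fold changes of -0.25 (adjusted p = 0.696) and -0.08 (adjusted p = 0.77) in No Strain.

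**Figure D3:**
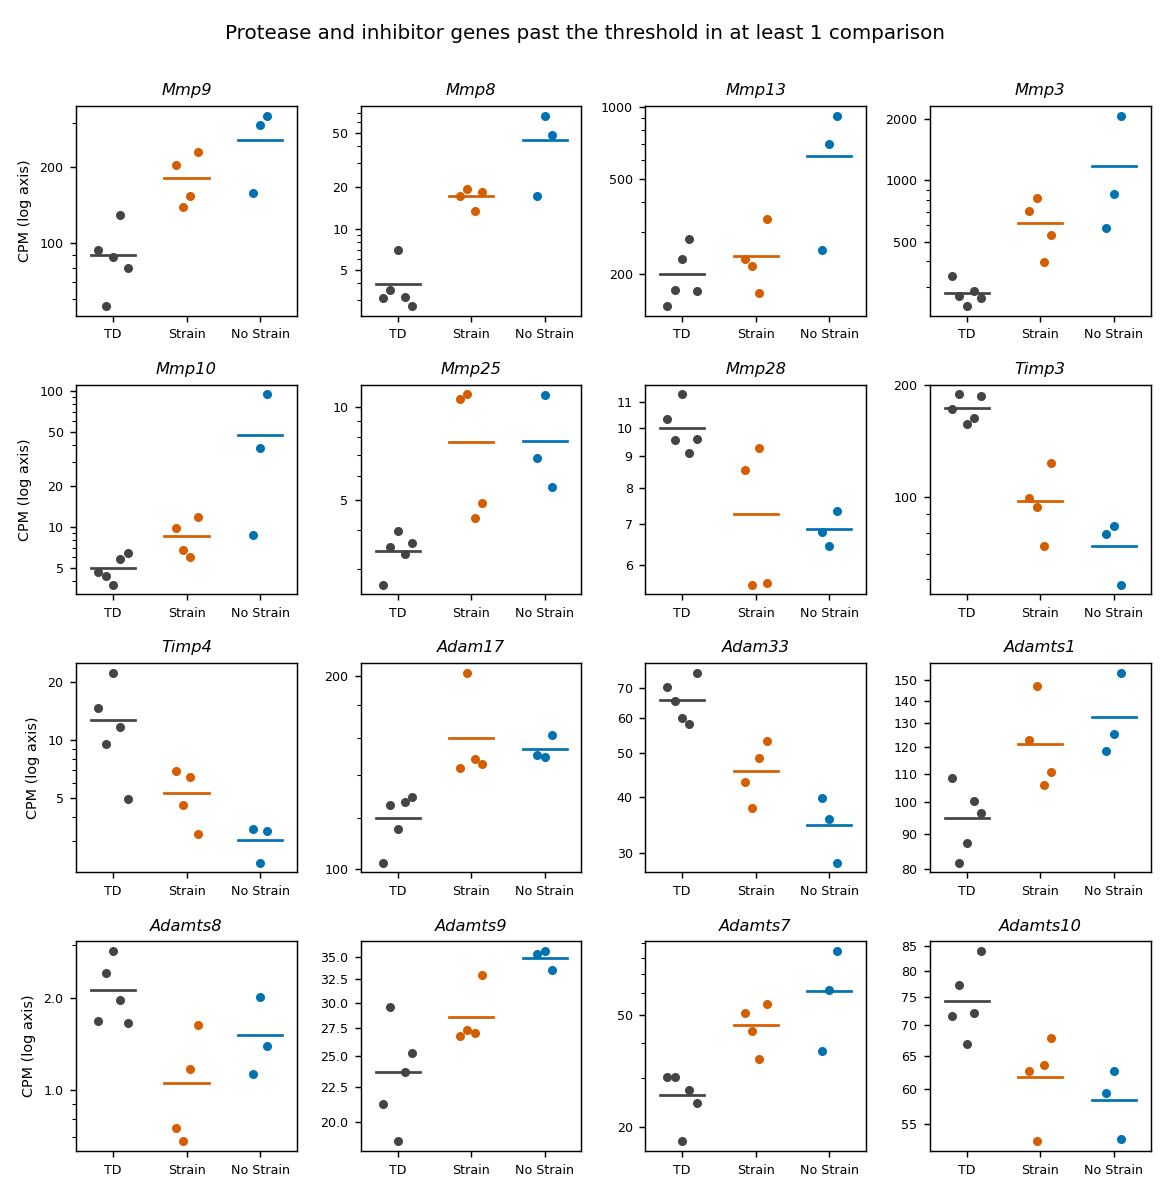
CPM (y axis, log) of the 16 members that passed in at least 1 comparison, with 1 point per library in TD, Strain and No Strain. For Mmp8 the patch libraries run from 13.4 to 19.4 CPM in Strain and 17.4 to 66.4 CPM in No Strain, all above the TD range of 2.72 to 7.02 CPM.

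Of the 4 Timp genes, which encode the inhibitors, Timp3 was lower under both patches and Timp4 under No Strain, and Timp1 and Timp2 passed in no comparison. Timp3 (chr10:86300372-86349506, plus strand) is held in the matrix and, unlike the other TIMPs, also blocks Adam17 and aggrecan-cutting ADAMTS enzymes. It was at 173, 189, 158, 163 and 187 CPM in TD, at 99.3, 94.2, 73.6 and 124 CPM in Strain and at 79.3, 83.7 and 58.0 CPM in No Strain. No patch library reached the lowest TD library. The change in log2 was -0.83 ± 0.15 (adjusted p = 0.0082) in Strain and -1.24 ± 0.16 (adjusted p = 0.00224) in No Strain against TD, and both calls were kept in all 12 fits that left out a library. Timp3 was also the 1 member still called for the mean of both patch groups with the muscle covariate, at -1.40 (adjusted p = 0.0163). Its exons share 1733 of 8144 bases with Syn3 on the opposite strand, which had 109 counts in all.

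Timp4 (chr6:115241892-115252205, minus strand), an inhibitor typical of heart, muscle and fat, was at 14.7, 9.57, 22.5, 11.7 and 4.95 CPM in TD, at 6.96, 4.64, 6.46 and 3.26 CPM in Strain and at 3.47, 2.32 and 3.39 CPM in No Strain. TD 5 lay inside the Strain range, while the No Strain libraries were below all TD libraries. The log2 fold change was -2.05 ± 0.44 (adjusted p = 0.0116) in No Strain, kept in all 12 fits that left out a library, and -1.25 ± 0.38 (adjusted p = 0.0517) in Strain, which did not pass. In Strain it did pass with DESeq2, with a mean of at least 5 CPM, without robust weights and without TD 5. With the muscle covariate the No Strain value was -1.20 and did not pass (adjusted p = 0.105). Adipocyte markers were lower for 6 of 9 genes in Strain and 8 of 9 in No Strain. Muscle markers were lower for 7 of 11 in Strain and 2 of 11 in No Strain (18.2%, against 17.8% of all genes). Whether fat or muscle content plays a part in Timp4 was not tested. Timp4 shares 90 exon bases with Syn2 on the opposite strand, which was at 1.75 to 13.9 CPM. Timp1, the partner of Mmp9, was at 102 ± 38.3 CPM (SD, n = 5) in TD, 93.0 ± 20.9 CPM (SD, n = 4) in Strain and 83.3 ± 24.0 CPM (SD, n = 3) in No Strain, and did not pass. Timp2, needed with Mmp14 for the activation of proMmp2, was at 1224 ± 269.9 CPM (SD, n = 5), 1022 ± 249 CPM (SD, n = 4) and 1038 ± 144 CPM (SD, n = 3) in the same order and did not pass either.

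As a description, the summed FPKM of the 16 Mmp genes was divided by that of the 4 Timp genes in each library. The ratio was 2.04, 2.00, 2.40, 2.30 and 1.96 in TD, 3.51, 3.93, 2.73 and 3.00 in Strain and 3.60, 4.38 and 6.20 in No Strain. All patch libraries were above all TD libraries, and the 2 patch groups overlapped. The Mmp sum was 957 ± 86.6 FPKM (SD, n = 5) in TD, 1247 ± 272 (SD, n = 4) in Strain and 1785 ± 700 (SD, n = 3) in No Strain, and the Timp sum was 453 ± 78.1, 380.0 ± 78.2 and 369.8 ± 52.7 FPKM. Mmp3 alone made up 16.3% ± 1.92 of the Mmp sum in TD, 27.5% ± 6.00 in Strain and 34.2% ± 10.3 in No Strain. Timp3 made up 4.34% to 5.64% of the Timp sum in TD, 2.90% to 3.54% in Strain and 1.76% to 3.15% in No Strain. The ratio of Mmp9 to Timp1 was 0.240 ± 0.102 in TD, 0.504 ± 0.144 in Strain and 0.775 ± 0.183 in No Strain. These are ratios of transcripts, and no test was run on them.

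**Figure D4:**
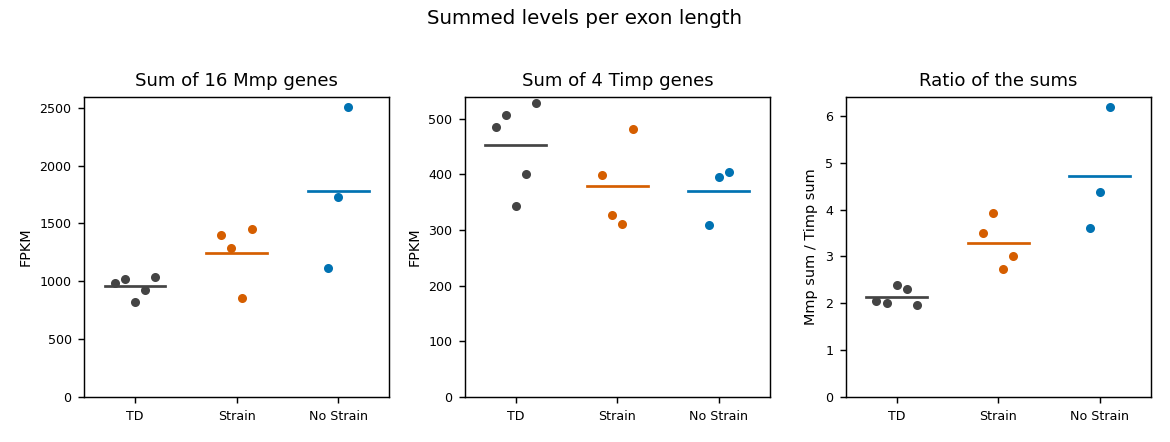
Summed levels per exon length in each library (points) of TD, Strain and No Strain, for the 16 Mmp genes and the 4 Timp genes in FPKM (y axis) and for their ratio. The ratio lies between 1.96 and 2.40 in TD, between 2.73 and 3.93 in Strain and between 3.60 and 6.20 in No Strain.

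Of the 8 Adam genes, Adam17 was higher and Adam33 lower under the patches. Adam17 (chr12:21323509-21373632, minus strand), which releases tumour necrosis factor and ligands of the epidermal growth factor receptor from cell membranes, was at 102, 126, 116, 127 and 129 CPM in TD. It was at 143, 202, 148 and 146 CPM in Strain and 150.5, 149.6 and 162 CPM in No Strain. The patch libraries were all above TD by a small margin, with Strain 2 apart from the rest. Against TD this was a log2 fold change of 0.41 ± 0.11 (adjusted p = 0.0309) in Strain, 0.36 ± 0.12 (adjusted p = 0.0537) in No Strain and 0.39 ± 0.096 (adjusted p = 0.0143) for both patch groups averaged. Without Strain 2 the Strain value fell to 0.27 (adjusted p = 0.0787), and the call was also lost without TD 1, TD 2, TD 3 or TD 4 (adjusted p 0.0565 to 0.0787 over these fits). Its 3′ neighbour Iah1, on the opposite strand, shares 311 exon bases and was at 21.6 to 36.1 CPM.

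Adam33 (chr2:131050591-131063814, minus strand), a membrane protease known from fibroblasts and smooth muscle, was at 70.1, 65.4, 59.9, 57.9 and 75.6 CPM in TD, at 43.0, 37.8, 48.7 and 53.2 CPM in Strain and at 39.6, 35.7 and 28.5 CPM in No Strain. TD lay above both patch groups without overlap. The change in log2 was -0.53 ± 0.12 (adjusted p = 0.021) in Strain and -0.93 ± 0.14 (adjusted p = 0.00276) in No Strain against TD. The Strain call was lost without Strain 1 or Strain 2 (adjusted p 0.0502 to 0.0633), the No Strain call in no such fit. Adam10, the protease that cuts Notch receptors, was at 129.5 to 164 CPM in TD, 145 to 171 in Strain and 149.9 to 168 in No Strain and did not pass. The leukocyte protease Adam8 was at 105, 212, 200.5, 223 and 249 CPM in TD, 155, 215, 214 and 216 in Strain and 302, 257 and 389.7 in No Strain. All 3 No Strain libraries were above all others, but the log2 fold change against TD, 0.68 ± 0.24 (adjusted p = 0.0695), did not pass. It did pass with DESeq2, with the title letter as covariate and without TD 1. Adam9, Adam12, Adam15 and Adam19 had log2 fold changes between -0.15 and 0.25 and did not pass.

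The secreted ADAMTS enzymes gave 2 calls among 14 in Strain against TD (14.3%, against 12.6% of all genes) and 4 in No Strain against TD (28.6%, against 17.8%). Adamts7 (chr9:90163069-90208071, plus strand), which cleaves cartilage oligomeric matrix protein and thrombospondin-1, rose under both patches. It was at 30.2, 30.3, 17.9, 27.3 and 24.4 CPM in TD, at 50.8, 44.2, 34.8 and 54.9 CPM in Strain and at 37.2, 61.5 and 84.6 CPM in No Strain. No patch library overlapped TD, and No Strain 3 was the highest. The log2 fold change was 0.83 ± 0.23 (adjusted p = 0.0375) in Strain and 1.23 ± 0.24 (adjusted p = 0.00829) in No Strain against TD. The Strain call was lost in 9 of 12 fits, all but those without Strain 3, No Strain 1 or No Strain 3 (adjusted p 0.0518 to 0.0907), the No Strain call in none. Its exons share 122 of 6282 bases with Tbc1d2b on the opposite strand, which was at 164 to 249 CPM.

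Of the proteoglycan-cutting ADAMTS enzymes, which act on versican and aggrecan, 2 rose in No Strain wounds and 1 fell in Strain wounds. Adamts9 (chr6:92772699-92943492, minus strand) was at 21.2, 29.5, 18.7, 23.7 and 25.3 CPM in TD, at 26.8, 27.3, 27.1 and 33.0 CPM in Strain and at 35.4, 35.8 and 33.5 CPM in No Strain. The No Strain libraries were within a narrow range above all others. Against TD this was a log2 fold change of 0.56 ± 0.13 (adjusted p = 0.0138) in No Strain (adjusted p = 0.0501 without No Strain 1) and 0.27 ± 0.12 (adjusted p = 0.154) in Strain. Adamts1 (chr16:85793827-85803113, minus strand), induced in many tissues during inflammation, was at 108, 81.7, 87.3, 100.3 and 96.4 CPM in TD, at 123, 147, 106 and 111 CPM in Strain and at 119, 125 and 154 CPM in No Strain. TD 1 overlapped the Strain range but not the No Strain range. Its log2 fold change was 0.48 ± 0.13 (adjusted p = 0.0244) in No Strain against TD, lost without TD 2, TD 3 or No Strain 3 (adjusted p 0.0525 to 0.115), and 0.36 ± 0.12 (adjusted p = 0.0653) in Strain. Adamts8 (chr9:30942562-30963838, plus strand), a scarce transcript here, was at 1.69, 2.42, 2.87, 1.98 and 1.67 CPM in TD, at 0.745, 0.675, 1.17 and 1.63 CPM in Strain and at 1.13, 2.02 and 1.39 CPM in No Strain. The Strain libraries were below all TD libraries, Strain 4 only just. Its log2 fold change in Strain against TD, -1.01 ± 0.29 (adjusted p = 0.0443), was lost in 8 of 12 fits, all but those without TD 5, Strain 4, No Strain 1 or No Strain 2 (adjusted p 0.0537 to 0.128). The value for the mean of both patch groups, -0.75 ± 0.25 (adjusted p = 0.046), was lost in 9 of 12, all but those without TD 5, Strain 4 or No Strain 2 (adjusted p 0.052 to 0.119).

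The best known aggrecanases did not pass: Adamts4 was at 66.2 ± 14.5 CPM (SD, n = 5), 53.6 ± 9.86 CPM (SD, n = 4) and 83.0 ± 19.1 CPM (SD, n = 3) in TD, Strain and No Strain, and Adamts5 at 191 ± 31.3 CPM (SD, n = 5), 220.5 ± 40.4 CPM (SD, n = 4) and 179.8 ± 38.7 CPM (SD, n = 3). Adamts15 had log2 fold changes of 0.51 (adjusted p = 0.177) in Strain and 0.57 (adjusted p = 0.145) in No Strain, and Adamts20 of -0.13 (adjusted p = 0.86) and 0.95 (adjusted p = 0.121). None of these 4 was beyond the threshold in any of the comparisons. The procollagen N-propeptidases Adamts2 and Adamts14, which trim new collagen before it forms fibrils, did not pass, with log2 fold changes between -0.07 and 0.18. Adamts10 (chr17:33524204-33553782, plus strand), which binds fibrillin microfibrils, was at 71.6, 77.2, 66.8, 72.1 and 83.9 CPM in TD, at 62.7, 52.8, 63.5 and 67.9 CPM in Strain and at 59.4, 62.6 and 53.0 CPM in No Strain. The No Strain libraries were below all TD libraries, and Strain 4 overlapped TD. Its log2 fold change was -0.35 ± 0.096 (adjusted p = 0.0284) in No Strain, lost without TD 2, No Strain 1 or No Strain 3 (adjusted p 0.0559 to 0.12), and -0.27 ± 0.087 (adjusted p = 0.0636) in Strain. Adamts6, Adamts12 and Adamts16 did not pass, with log2 fold changes between -0.38 and 0.17.

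The comparison of the 2 patches, which differ in strain, gave no call among the members. At the adjusted threshold, 0 of 42 members passed and 0% of all genes did, where the smallest adjusted p of any gene was 0.402. Before adjustment, 9 members had p under 0.05 (21.4%), against 5.61% of all genes, and 7 of them had lower values in Strain. DESeq2 called 1 member, Mmp10, and 33 of all genes. The 3 members with the smallest p were Mmp10 at -2.46 ± 0.57 (adjusted p = 0.872), Mmp13 at -1.39 ± 0.38 (adjusted p = 0.872) and Mmp8 at -1.36 ± 0.40 (adjusted p = 0.872), none of which passed in edgeR. For all 3, No Strain 2 and No Strain 3 (title letter L) were above every Strain library and No Strain 1 (title letter R) was not. Groups did not overlap for 2 of 42 members (4.76%), Adam8 and Adamts9, against 5.62% of all genes. The spread within the No Strain group was wide for these enzymes, with a coefficient of variation of 92.5% for Mmp10, 67.9% for Mmp3, 56.3% for Mmp8 and 54.4% for Mmp13 over 3 libraries.

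The same libraries often lay at the ends of their group for the 16 called members. In the No Strain group, No Strain 1 was the lowest for 8 of them, including Mmp9, Mmp8, Mmp13, Mmp3 and Mmp10, and No Strain 3 was the highest for 8. In the Strain group, Strain 3 was the lowest for 8 and Strain 4 the highest for 9. The titles of No Strain 1 and Strain 3 carry the letter R, and those of all other patch libraries L. Both R libraries were the lowest of their group for Mmp8, Mmp13, Mmp3, Mmp10, Adamts1 and Adamts7. The meaning of the letter is not stated, and its part in this spread was not tested. In TD, no library was the highest for more than 5 or the lowest for more than 6. Of the 16 members, 7 passed in both comparisons with TD, 2 (Adam17 and Adamts8) in Strain alone, 6 (Adamts1, Adamts9, Adamts10, Mmp10, Mmp13 and Timp4) in No Strain alone, and Mmp28 for the mean only. The direct comparison of the patches called none of them, and these splits are no test of a difference between the patches.

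**Figure D5:**
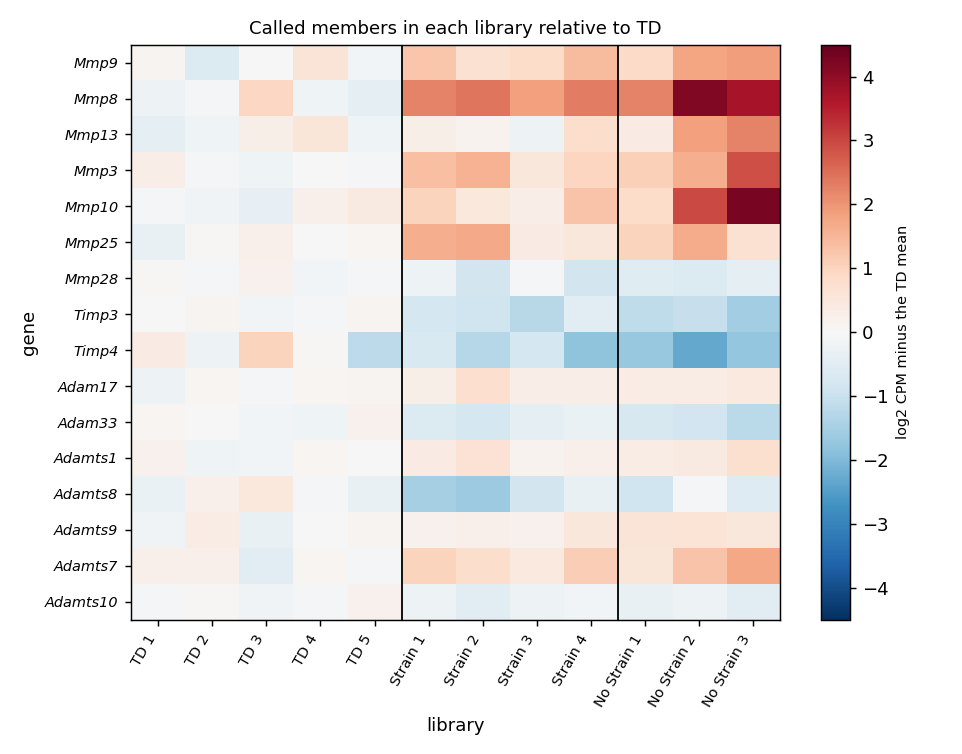
Log2 CPM minus the TD mean (colour) of the 16 called members (rows) in each of the 12 libraries (columns), with black lines between TD, Strain and No Strain. Mmp8, Mmp10 and Mmp13 are highest in No Strain 2 and No Strain 3, and Timp3, Timp4 and Adam33 lie below the TD mean in the 7 patch libraries.

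Genes that activate, restrain or are cut by these enzymes were read from lists drawn up by function. Their counts stand against 24.4% of all genes called for both patch groups averaged, 12.6% in Strain and 17.8% in No Strain. For both patch groups averaged against TD, 5 of 9 tested activators passed, 3 higher and 2 lower, beside 0 in Strain and 4 in No Strain alone. Furin, the convertase that activates membrane-type enzymes and ADAMs, was at 186 ± 7.91 CPM (SD, n = 5) in TD, 212 ± 17.9 (SD, n = 4) in Strain and 249.9 ± 24.6 (SD, n = 3) in No Strain, a log2 fold change of 0.31 (adjusted p = 0.00733). The urokinase receptor Plaur rose by 0.59 (adjusted p = 0.0393) and plasminogen, Plg, by 2.04 (adjusted p = 0.0416), and Plg was below 10 CPM in every library. The convertase Pcsk6 was lower, at 97.6 ± 35.3, 59.7 ± 29.7 and 39.7 ± 9.48 CPM (adjusted p = 0.0272), as was cathepsin G, Ctsg, at -0.59 (adjusted p = 0.0338).

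Of 8 other inhibitors and clearance genes, 3 passed for the mean, 2 in Strain and 4 in No Strain. Lcn2 is on this list but encodes neither a protease inhibitor nor a clearance receptor. It was at 20.2 ± 17.0, 178 ± 148 and 229.8 ± 113 CPM in TD, Strain and No Strain, a log2 fold change of 3.32 (adjusted p = 0.00657). Slpi, an inhibitor of neutrophil elastase, was higher by 1.69 (adjusted p = 0.00248). Reck, a membrane inhibitor of Mmp9 and Mmp14, was lower by the same test, at 45.1 ± 7.69, 34.0 ± 8.19 and 27.5 ± 2.77 CPM and a log2 fold change of -0.56 (adjusted p = 0.0156).

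Of 8 partners of Adam10 and Adam17, 4 passed for the mean, 2 in Strain and 4 in No Strain. Rhbdf1, a carrier of Adam17, was lower at -0.29 (adjusted p = 0.00284), and the tetraspanins Tspan5 and Tspan17, which guide Adam10, were lower at -0.37 (adjusted p = 0.00651) and -0.22 (adjusted p = 0.0486). Tspan10 was higher at 2.51 (adjusted p = 0.00987), on 82 counts in all. Of 14 substrates that these enzymes shed, 9 passed for the mean, 7 higher and 2 lower, beside 4 in Strain and 8 in No Strain. They included Tnf at 1.46 (adjusted p = 0.00354) and the receptor Tnfrsf1b at 0.94 (adjusted p = 0.00451), both higher, and Il6ra at -0.44 (adjusted p = 0.0205) and Notch1 at -0.37 (adjusted p = 0.0241), both lower. Tnf and Tnfrsf1b are genes of leukocytes. Neutrophil marker sums were mostly higher in the patch libraries, but TD 1 (1571 CPM) was above Strain 3 (737 CPM) and Strain 4 (1230 CPM). Whether leukocyte numbers play a part in these changes was not tested. Of 9 proteoglycan and matrix substrates, aggrecan, Acan, at -1.31 (adjusted p = 0.0254), and Comp, at -0.74 (adjusted p = 0.0386), were lower, and versican, Vcan, had 0.12 (adjusted p = 0.614). Neither Acan nor Comp passed in a single patch group, where the list gave 0 calls in Strain and 1, Thbs1, higher, in No Strain. Of 13 further tested Adam, Adamts and Mmp genes outside the list, Adam1a, at -0.77 (adjusted p = 0.0155), and Adamts18, at -1.07 (adjusted p = 0.0277), were lower and none was higher.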

How the data were processed

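Messenger RNA of 12 dorsal wounds was sequenced after oligo(dT) enrichment with a kit not stated to keep strand, per the labels' protocols. The deposited tables hold raw counts per gene, 1 table per library, with 54232 Ensembl identifiers each, per the file headers. The submitters' processing notes name bcl2fastq 2.17, FastQC, cutadapt, STAR, featureCounts, DESeq2 and GRCm38, with no role or order; the handling of reads that match several genes is not given in the sources used here. Each library counted as 1 replicate, and no replicate pair agreed within sampling noise (chi-square per degree of freedom 9.53 to 75.0).

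Symbols (54079 of 54232 identifiers), exon lengths, positions and overlaps came from GENCODE M21. Genes were kept by filterByExpr (minimum count 10, minimum total 15), TMM-scaled (trimmed mean of M-values), and fitted in 1 robust quasi-likelihood model of 3 groups with edgeR 4.0.16 in R 4.3.3. All 4 contrasts were adjusted by Benjamini-Hochberg over 18618 genes, with a threshold of 0.05. Each standard error is the absolute log2 fold change divided by the square root of its F statistic. CPM used the scaled library totals, and FPKM also the exon length. The fit was tested on simulated counts first. Exons of 29 of the 43 listed members overlapped no other gene, and 14 overlapped a gene on the opposite strand, whose reads cannot be told apart without strand.

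The members and all gene lists were chosen with earlier results of these data known. Named genes were every member past the threshold in at least 1 comparison, the 3 members with the smallest p between the patches, the 5 with the highest FPKM, and up to 3 genes per direction of each related list. One gene that this rule names is not reported here. Promoter windows (26 of 42 members matched) came from RefSeq on GRCm38.p6, cut to 250 upstream bases. Alternatives were DESeq2 size factors, scaling by library totals alone, DESeq2 1.42.0, limma-voom with quality weights (limma 3.58.1), no filter, a mean of at least 5 CPM, no robust weights, only the groups compared, the title letter or the mean of a skeletal muscle list as a covariate, and each library left out in turn.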

Additional observations from a re-analysis of the deposited data

Results flagged for a closer look

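Sets of values were screened in the groups of 4 and 5 libraries, 1 per group for each named member and marker list. The ratios of the Mmp sum to the Timp sum and of Mmp9 to Timp1 were screened likewise. Of these 62 sets, 6 had 1 library far from the others of its group, where chance alone gives about 3.1. Mmp8 in TD 3 was at 7.02 CPM, where the next TD library was at 3.57 CPM. Adam17 in Strain 2 was at 202 CPM, where the next Strain library was at 148 CPM. Adamts9 in Strain 4 was at 33.0 CPM, next to 27.3 CPM. The summed neutrophil markers of TD 1 were at 1571 CPM, next to 552 CPM. Fibroblast markers in TD 3 were the lowest of the group, at 46187 CPM, next to 65237 CPM, and endothelial markers in TD 5 the highest, at 512 CPM, next to 425 CPM.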

How the results depend on the processing

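Alternatives were run for the called members, in the comparisons that called them, and for the 3 members with the smallest p between the patches. Of these 884 values, 0 reversed. Of the called members, Mmp8 and Timp3 kept their call against TD in both patch groups whichever library was left out. Counts of members called moved by more than 1.5 times under these settings. In Strain against TD, where 9 were called, DESeq2 called 14 (beside 18.9% of all genes) and the fit without a filter 5 (beside 4.28%). There the title letter as covariate left 2 (Mmp8 and Timp3) and the muscle covariate 0. In No Strain against TD, where 13 were called, the muscle covariate left 8. For the mean of both patch groups, where 16 were called, the title letter left 9 and the muscle covariate 1. Between the patches DESeq2 called 1 (Mmp10, adjusted p = 0.0107) where edgeR called 0. Leaving out 1 library gave 3 to 9 in Strain against TD, 10 to 15 in No Strain against TD, 13 to 16 for the mean and 0 between the patches. The all-gene shares in these fits were 4.75% to 13.3%, 7.88% to 18.4%, 17.2% to 24.7% and 0%. The cause of these shifts was not tested. Under the title letter all-gene calls were 798, 2145, 2589 and 0, and under the muscle covariate 1, 939, 100 and 0, in the same order. The titles number TD wounds 1 to 6 and patch wounds 7 to 15, so that order and dressing cannot be told apart. No paired analysis was possible because no title number occurs in more than 1 group.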
